A study of Mus musculus with 6 samples.

Results

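Genes of interleukin signalling were followed in mouse macrophages: the cytokine genes Il10 and Il27, and the receptor genes Il10ra, Il10rb, Il6ra, Il6st, Il27ra, Il13ra1, Il17ra and Il21r. They were chosen by name, and all 10 members were found once each among the 52550 genes of the count table. The macrophages had been grown from C57BL/6 bone marrow for 7 days in 25 ng/ml of M-CSF, the macrophage growth factor. In 3 samples, C CM1 to C CM3, they then received medium in which normal chondrocytes, the cells of cartilage, had been kept. In the other 3, AC CM1 to AC CM3, the medium came from apoptotic chondrocytes. There was no group without chondrocyte medium, the time of exposure is not given in the sources used here, and all samples share the M-CSF culture. Nothing in the labels ties the libraries to separate mice or dishes. All p-values below therefore rest on library-to-library spread alone, and that spread may be technical.

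Cytokine receptors of this kind work as pairs of chains. A ligand-binding chain gives specificity, a second chain is often shared between receptors, and Janus kinases (JAKs) bound to the chains activate STAT transcription factors. Interleukin 10 (IL-10) binds IL-10Rα and signals with IL-10Rβ, mainly through STAT3, and restrains inflammatory gene expression in macrophages. IL-6 binds IL-6Rα and signals through gp130, the product of Il6st. IL-27, made of the p28 subunit (Il27) and EBI3, uses IL-27Rα with the same gp130. IL-21R pairs with the common gamma chain (Il2rg), and IL-13Rα1 with IL-4Rα. IL-17RA pairs with IL-17RC and signals through the adaptor ACT1 instead of a JAK.

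Promoter windows of 250 bases before the start site were held by the RefSeq table (GRCm38.p6) for 4 of the 10 genes: Il6ra, Il6st, Il13ra1 and Il21r. The windows of Il6ra and Il21r are shown because these class I receptor genes moved in opposite directions. Capitals mark matches on either strand to GGAAGT (an ETS factor motif), CACGTG (E-box) and GGGCGG (GC box).
Il6ra, chr3:89913197-89913446, minus strand: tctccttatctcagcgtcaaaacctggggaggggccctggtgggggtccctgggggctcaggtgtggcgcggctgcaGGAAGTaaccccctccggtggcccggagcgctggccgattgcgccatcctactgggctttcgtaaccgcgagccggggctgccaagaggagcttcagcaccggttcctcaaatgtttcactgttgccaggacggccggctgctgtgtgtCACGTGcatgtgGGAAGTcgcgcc
Il21r, chr7:125603179-125603428, plus strand: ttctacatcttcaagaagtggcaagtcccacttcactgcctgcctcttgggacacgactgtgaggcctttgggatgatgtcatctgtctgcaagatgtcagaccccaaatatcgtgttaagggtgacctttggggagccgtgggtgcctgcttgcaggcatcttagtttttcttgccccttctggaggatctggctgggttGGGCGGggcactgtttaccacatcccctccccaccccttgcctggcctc
The Il6ra window held GGAAGT at 2 places, whose first bases in the printed strand lie 173 and 12 bases before the start, and CACGTG at 24 bases before it. The Il21r window held GGGCGG at 49 bases before the start. Of the 32851 windows in the table, 19.7% held GGAAGT, 6.02% CACGTG and 32.7% GGGCGG. TTCNNNGAA, a STAT motif held by 7.02% of all windows, was not found in any of the 4. Neither was TGACGTCA, the cyclic AMP response element, which 1.55% of all windows held. TGANTCA, an AP-1 motif held by 6.75% of all windows, was also absent from the 4. The Il13ra1 window held GGAAGT once and GGGCGG at 3 places, 2 of them overlapping, and the Il6st window held GGGCGG once. The Il6ra window also lies inside the single exon of Gm42809, annotated as an antisense gene (chromosome 3, 89912916 to 89914053).

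Some facts of the libraries bear on every value below. Counts summed to between 65630784 and 80105872 per library. The macrophage genes Lyz2, Csf1r and Adgre1 were abundant in all 6 libraries, and the 12 macrophage markers summed to 25322 to 26725 CPM (reads of a gene scaled to a common library size, edgeR's CPM) after C CM and 22762 to 23616 after AC CM. The monocyte list is of the cells closest to macrophages. It summed to 953 to 1168 CPM after C CM and 509 to 583 after AC CM. Of its 8 genes, 5 were called lower and 0 higher, against 13.3% of all genes tested in each direction. Other marrow cell lists were also lower after AC CM, without overlap: the summed neutrophil list was at 877 to 1028 CPM against 192 to 208, the dendritic cell list at 60.0 to 72.3 against 15.3 to 17.3, and the list of B, T and NK cells at 30.7 to 37.1 against 10.9 to 11.5. The stromal list, led by the collagen genes Col1a2 and Col1a1, was at 4327 to 5380 CPM against 3428 to 3508. The chondrocyte list went the other way, at 72.7 to 84.4 CPM after C CM and 109 to 112 CPM after AC CM. Of its 6 tested genes, 2 were called higher and 0 lower, against the same 13.3% of all genes each way. The source of the chondrocyte transcripts was not tested. Hepatocyte genes, led by Alb, summed to 46.9, 2.73 and 1.37 CPM in C CM1 to C CM3 and to 52.3, 618 and 1418 CPM in AC CM1 to AC CM3. Xist, an RNA of female cells, was at 0.564 to 3.93 CPM after C CM and 1347 to 1487 CPM after AC CM, while the Y-linked gene Ddx3y was at 76.2 to 81.1 CPM against 36.8 to 39.4. The sex makeup of the cells and the medium thus differed together between the groups and cannot be told apart. In bulk samples, fewer cells of a type and less RNA per cell cannot be told apart either.

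**Figure D1:**
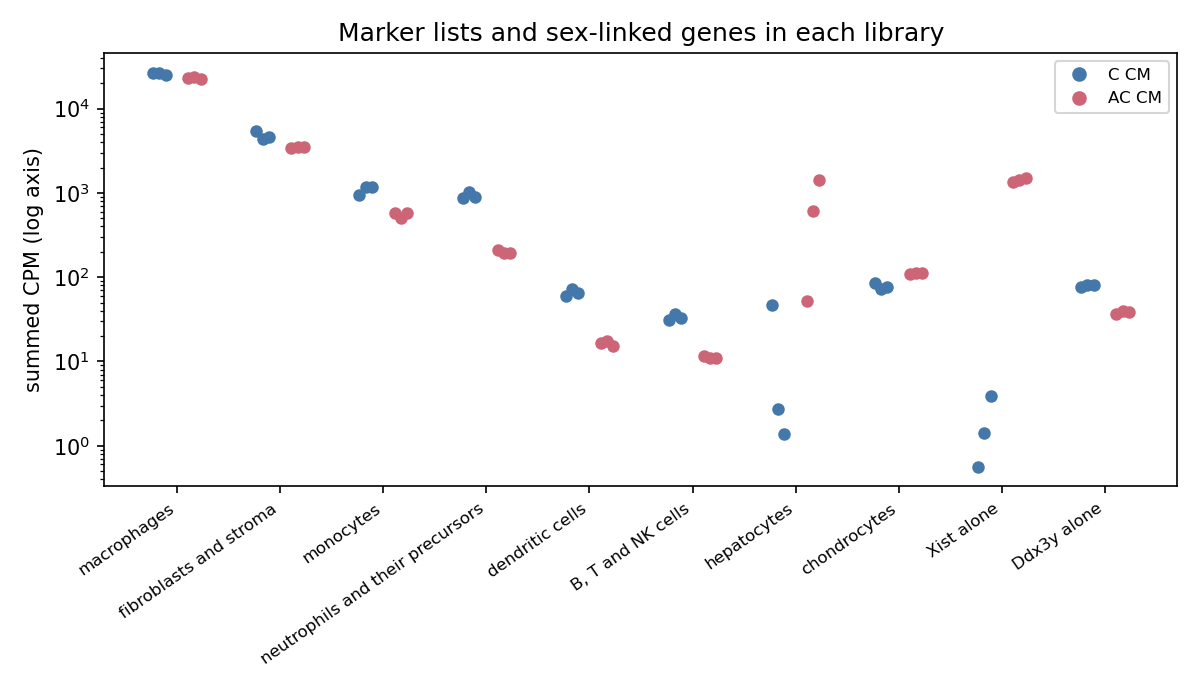
Summed CPM of each marker list, and CPM of Xist and Ddx3y, in each library on a log axis, with C CM libraries in blue and AC CM libraries in red. Neutrophil, dendritic cell and lymphocyte lists were lower in every AC CM library, hepatocyte genes reached 1418 CPM in AC CM3, and Xist was at 1347 CPM or more only after AC CM.

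After AC CM, the ligand-binding chains Il10ra, Il6ra and Il27ra fell, while the ligand-binding chain Il21r rose, as did Il10rb and Il27. The shared chain gene Il6st did not pass the test. Il10ra fell 2.14-fold, Il6ra 1.90-fold and Il27ra 5.01-fold. The rises were smaller: 1.23-fold for Il10rb, 1.37-fold for Il21r and 1.79-fold for Il27, the last from a low level. Il13ra1 fell 1.31-fold. Il10 and Il17ra did not pass. In all, 3 of the 10 genes rose and 4 fell at an adjusted p under 0.05, against 13.3% of the 17863 genes tested that rose and 13.3% that fell (26.5% in either direction). By that test, 2 of the 10, Il10ra and Il27ra, also changed at least 2-fold, against 6.24% of all genes tested. The genes were proposed with results of these data known, so that count is a description. The median log2 fold change was -0.07 over the 10 genes and 0.00 over all genes tested. In 9 of the 10 genes the libraries of the groups did not overlap, which was also true of 44.7% of all genes tested. In the authors' deposited table the same 7 genes had an adjusted p under 0.05, against 18.7% of its genes with an adjusted p.

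**Figure D2:**
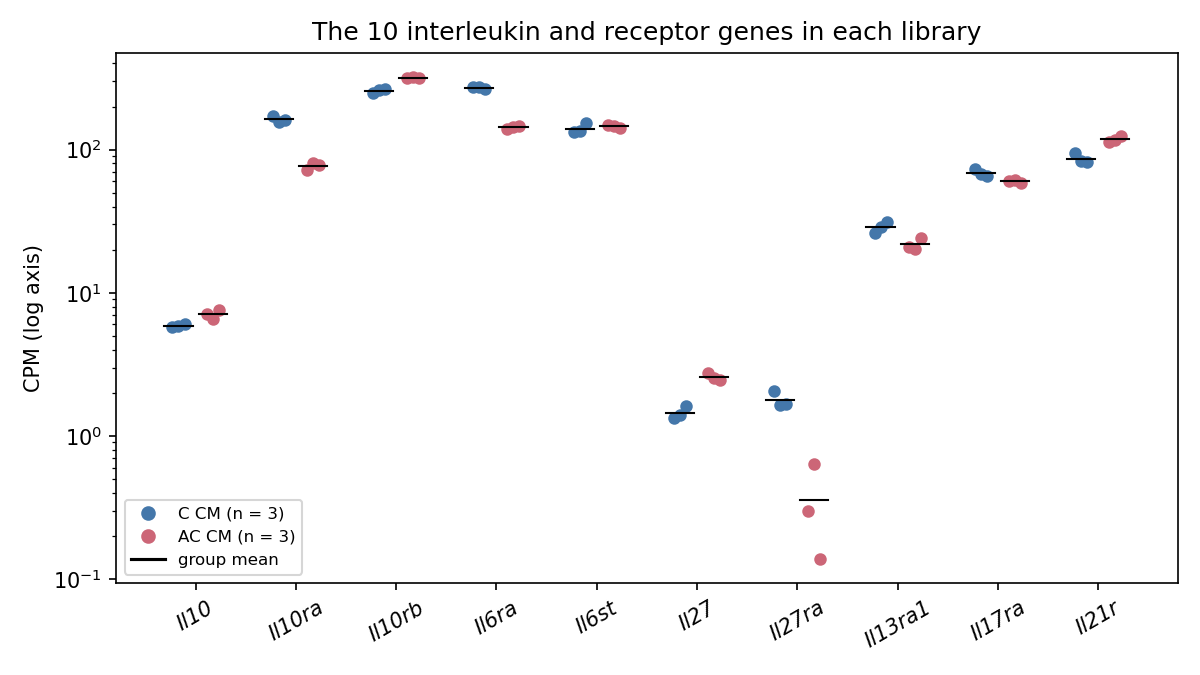
CPM of each of the 10 genes in the 3 C CM (blue) and 3 AC CM (red) libraries on a log axis, with bars at the group means. Il10ra, Il6ra and Il27ra were lower in every AC CM library, Il10rb, Il21r and Il27 were higher, and the groups overlapped for Il6st.

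The levels of the genes were compared per kilobase of exon (CPM per kb), since longer transcripts collect more reads. After C CM the order was Il10rb (67.6 ± 2.06 CPM per kb), Il10ra (46.9 ± 2.34), Il6ra (31.4 ± 0.623), Il21r (26.0 ± 2.02) and Il6st (12.6 ± 0.989), where ± is the SD over n = 3 samples. Il17ra (7.92 ± 0.431) and Il13ra1 (7.72 ± 0.682) followed, and their libraries overlapped. The cytokine gene Il10 was at 4.49 ± 0.119, Il27 at 1.42 ± 0.141 and Il27ra at 0.513 ± 0.0657 CPM per kb. After AC CM, Il21r (35.5 ± 1.76) stood above Il10ra (21.9 ± 1.25) and Il6ra (16.6 ± 0.409) in every library. Il10rb still led at 83.4 ± 0.849 CPM per kb. Il13ra1 (5.87 ± 0.534) and Il10 (5.41 ± 0.375) overlapped there. The libraries of the other neighbours in each order did not overlap. Exon length is that of all annotated transcripts together, so the levels depend on which transcripts the cells used.

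Il10ra (ENSMUSG00000032089.16, chromosome 9, 45253837 to 45269149, minus strand) encodes the chain that binds IL-10. Its level was 173, 157 and 161 CPM in the C CM libraries, in the order of their numbers, and 71.9, 80.4 and 77.5 CPM in the AC CM libraries. Every AC CM library was below every C CM library by more than the spread within either group. The log2 fold change, AC CM over C CM, was -1.10 (SE 0.07, 95% interval -1.26 to -0.94, adjusted p = 1.62e-05 by edgeR's quasi-likelihood test). Without the pair AC CM2 and AC CM3, in which hepatocyte genes were most abundant, it was -1.19 (adjusted p = 0.00322). The monocyte markers given above were lower in the same libraries, and their part in the falls of Il10ra and Il6ra was not tested.

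Il10rb (ENSMUSG00000022969.13, chromosome 16, 91406164 to 91425834, plus strand) encodes the accessory chain, which the receptors of IL-22 and the lambda interferons also use. Its level was 249, 260 and 264 CPM after C CM and 315, 321 and 317 CPM after AC CM. The AC CM libraries were all higher and lay close together. The log2 fold change was 0.30 (SE 0.06, adjusted p = 0.00464 by edgeR). Without the pair AC CM2 and AC CM3 the value was 0.28 and the call was lost (adjusted p = 0.233). Gm21970, a protein-coding model on the same strand, shares 569 exon bases with Il10rb and had only 55 to 88 counts per library, so reads of the shared exons may have been assigned to either. The binding chains that would pair with Il10rb for other ligands were scarce: Il22ra1 had 0 counts in all C CM libraries and 0, 9 and 5 counts in the AC CM libraries, and Ifnlr1 was at 0.198 ± 0.150 against 0.326 ± 0.0593 CPM.

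The chains of the IL-10 receptor thus moved in opposite directions. Per kilobase of exon, the ratio of Il10rb to Il10ra was 1.32, 1.52 and 1.50 in the C CM libraries and 4.02, 3.67 and 3.76 in the AC CM libraries. The exact two-sided permutation test over samples gave p = 0.100 (n = 3 per group), the smallest that 3 against 3 allows. With Il10rb higher and Il10ra lower in every AC CM library, the ratios had to separate, so this test adds nothing to those values. The ligand gene Il10 (chromosome 1, 131019845 to 131024974) was at 5.73, 5.88 and 6.05 CPM after C CM and 7.11, 6.58 and 7.56 CPM after AC CM. Although every AC CM library was higher, Il10 did not pass the test (log2 fold change 0.27, SE 0.13, 95% interval -0.03 to 0.56, adjusted p = 0.167 by edgeR).

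**Figure D3:**
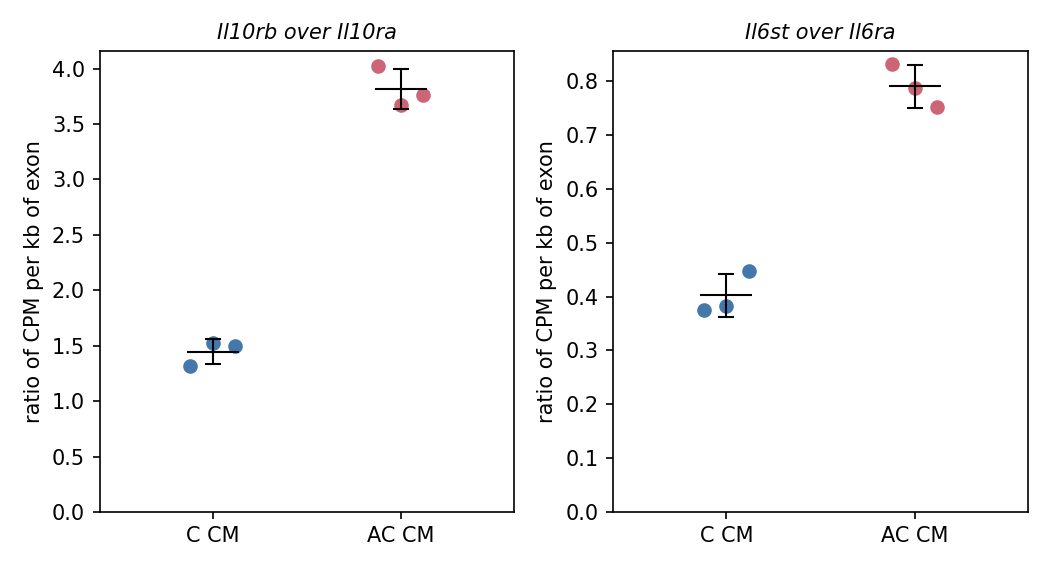
Ratios of chain genes per kilobase of exon in each library: Il10rb over Il10ra on the left and Il6st over Il6ra on the right, with mean and SD (n = 3 per group, axes from 0). Both ratios were higher in every AC CM library than in any C CM library, at 3.82 against 1.45 and at 0.791 against 0.402 on average.

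Il6ra (ENSMUSG00000027947.11, chromosome 3, 89864059 to 89913196, minus strand) encodes the chain that binds IL-6. Its level was 274, 275 and 265 CPM after C CM and 139, 144 and 146 CPM after AC CM. The groups were far apart relative to their spread. The log2 fold change was -0.92 (SE 0.06, adjusted p = 1.36e-05 by edgeR), and -0.97 (adjusted p = 0.00512) without the pair AC CM2 and AC CM3. The antisense gene Gm42809 shares 242 exon bases with Il6ra and also fell, from 12.0 ± 3.07 to 4.89 ± 0.554 CPM. No source used here says if the counting was strand-specific, so reads of that stretch cannot be told apart.

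Il6st (chromosome 13, 112464070 to 112510086) encodes gp130, the chain through which the receptors of IL-6 and IL-27 signal. It was at 132, 135 and 153 CPM after C CM and 149, 146 and 141 CPM after AC CM. The groups overlapped. The log2 fold change was 0.05 (SE 0.07, adjusted p = 0.657 by edgeR), with a 95% interval of -0.11 to 0.22 that excludes a change as large as that of Il6ra. The ratio of Il6st to Il6ra per kilobase of exon was 0.376, 0.383 and 0.448 after C CM and 0.832, 0.787 and 0.753 after AC CM. The exact two-sided permutation test gave p = 0.100 (n = 3 per group), the smallest that 3 against 3 allows. Since the groups overlapped for Il6st, the ratio mostly restates the fall of Il6ra. Il6 itself had between 0 and 12 counts per library and was too low to be tested.

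Il27ra (ENSMUSG00000005465.9, chromosome 8, 84030294 to 84042589, minus strand) encodes the specific chain of the IL-27 receptor, which is best known from lymphocytes. It was scarce, with 135, 113 and 112 counts after C CM and 21, 49 and 11 counts after AC CM, or 2.06, 1.65 and 1.67 CPM against 0.298, 0.634 and 0.138 CPM. All AC CM libraries were lower, but they differed several-fold among themselves. The log2 fold change was -2.33 (SE 0.49, 95% interval -3.44 to -1.21, adjusted p = 0.00827 by edgeR). It was -3.04 without AC CM2 and -1.94 without AC CM3, and the call held in both. The lists of lymphocyte and dendritic cell markers fell beside it. Called lower were 10 of 12 tested genes of B, T and NK cells and 8 of 9 dendritic cell genes, and none was higher. Over all genes tested, 13.3% were called lower. The part of these markers in the fall of Il27ra was not tested.

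Il27 (ENSMUSG00000044701.5, chromosome 7, 126589010 to 126594941, minus strand) encodes the p28 subunit of the cytokine. It had 88, 95 and 108 counts after C CM (1.34, 1.39 and 1.61 CPM) and 195, 196 and 197 counts after AC CM (2.77, 2.53 and 2.47 CPM). The groups did not overlap, at a low level in both. The log2 fold change was 0.84 (SE 0.21, adjusted p = 0.0169 by edgeR). The call was lost without AC CM1 (0.79, adjusted p = 0.0602) and without the pair AC CM2 and AC CM3 (0.93, adjusted p = 0.164). Apobr, the apolipoprotein B receptor gene on the opposite strand, shares 103 exon bases with Il27, was far more abundant and also rose, from 155 ± 3.62 to 202 ± 0.855 CPM. Without a statement on strand, Apobr reads in the Il27 count cannot be told apart. The partner gene Ebi3 was at 79.2, 67.9 and 62.0 CPM after C CM and 60.3, 58.6 and 58.8 CPM after AC CM. Ebi3 did not pass (log2 fold change -0.23, SE 0.09, adjusted p = 0.101 by edgeR).

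Il21r (ENSMUSG00000030745.9, chromosome 7, 125603429 to 125633570, plus strand) encodes the IL-21 receptor. It was at 94.1, 83.4 and 81.8 CPM after C CM and 113, 117 and 124 CPM after AC CM. The rise was larger than the spread between replicates, at 0.45 on the log2 scale (SE 0.08, adjusted p = 0.00284 by edgeR). It was 0.38 (adjusted p = 0.180) without the pair AC CM2 and AC CM3. Its partner Il2rg went the other way, from 132 ± 7.45 to 111 ± 2.64 CPM (log2 fold change -0.25, SE 0.07, adjusted p = 0.0234 by edgeR). That call was lost when any single library other than C CM1 was left out (adjusted p = 0.0604 to 0.102), and Il2rg is X-linked. The ligand gene Il21 was listed at 0 in every library. The summed markers of B, T and NK cells, which also express Il21r, were lower after AC CM, and their part in the Il21r values was not tested.

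Il13ra1 (ENSMUSG00000017057.9, chromosome X, 36112110 to 36171259, plus strand) encodes a receptor chain for IL-13 and IL-4. It was at 26.0, 28.9 and 31.0 CPM after C CM and 21.0, 20.3 and 24.0 CPM after AC CM. The groups were separate by a narrow margin, and the log2 fold change was -0.40 (SE 0.11, adjusted p = 0.0245 by edgeR). Leaving out C CM2, C CM3, AC CM1 or AC CM2 ended the call, with adjusted p of 0.0674, 0.0791, 0.0863 and 0.101. Leaving out AC CM2 and AC CM3 together did so too (0.201). Il13ra1 is X-linked, and the groups differed in Xist; its part in the fall was not tested. The partner Il4ra was at 373, 317 and 323 CPM after C CM and 328, 344 and 328 CPM after AC CM and did not pass (log2 fold change -0.02, SE 0.07, adjusted p = 0.883 by edgeR).

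Il17ra (chromosome 6, 120463247 to 120487559) encodes the shared chain of the IL-17 receptors. It was at 72.9, 67.1 and 65.8 CPM after C CM and 60.5, 61.5 and 58.0 CPM after AC CM. Every AC CM library was lower, but Il17ra did not pass the test (log2 fold change -0.19, SE 0.07, adjusted p = 0.0783 by edgeR). Its partner Il17rc was at 6.00 ± 1.61 against 6.44 ± 0.700 CPM (adjusted p = 0.756 by edgeR), and Traf3ip2, the gene of ACT1, at 7.45 ± 0.531 against 8.19 ± 0.789 CPM (adjusted p = 0.502 by edgeR). Of the 9 tested genes in a list of IL-17 receptors, adaptors, Nfkbiz and Zc3h12a, 3 fell and 0 rose (median log2 fold change -0.16). The share called was 33.3%, against 26.5% of all genes tested in either direction and 13.3% that fell. Il17rd was the only receptor or adaptor gene of the list to be called. Nfkbiz, an inducible co-regulator of inflammatory genes, fell by 0.64 and the RNase gene Zc3h12a by 0.61 on the log2 scale. The receptor gene Il17rd was at -0.78, with adjusted p from 0.0536 to 0.0833 when C CM1, C CM3, AC CM1 or AC CM2 was left out.

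**Figure D4:**
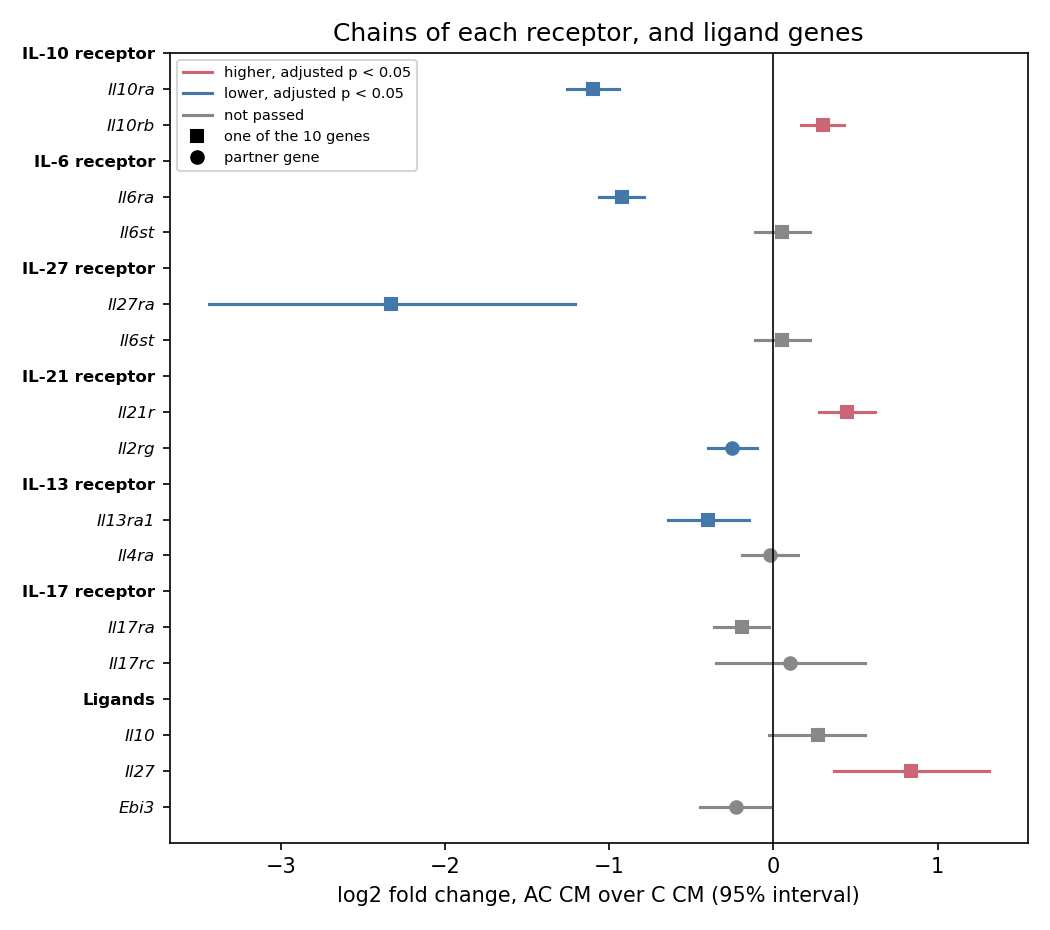
Log2 fold change, AC CM over C CM, with its 95% interval for the chains of each receptor and for ligand genes; red marks genes called higher, blue lower and grey not passed, squares the 10 genes and circles their partners. The binding chains Il10ra, Il6ra and Il27ra lie at -0.92 or lower, while their partners Il10rb and Il6st lie at 0.30 and 0.05. The binding chain Il21r goes the other way at 0.45, with its partner Il2rg at -0.25.

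Downstream of these receptors lie the JAK kinases and STAT factors. Of 11 JAK and STAT genes, all tested, 5 fell, 0 rose and 6 did not pass, with a median log2 fold change of -0.25. The share called was 45.5%, against 26.5% of all genes tested in either direction and 13.3% that fell. Stat3, the main factor of IL-10 and IL-6 signalling, was at 187, 184 and 183 CPM after C CM and 129, 135 and 128 CPM after AC CM. The groups were clearly apart (log2 fold change -0.50, SE 0.06, adjusted p = 3.82e-04 by edgeR). Tyk2, a kinase bound by IL-10Rβ, fell by 0.39 from 129 ± 14.2 CPM. Stat4 fell by 0.94, at a low level of 4.87 ± 0.219 CPM after C CM. Jak1 (-0.15, adjusted p = 0.0831), Jak2 (0.19, adjusted p = 0.125) and Stat6 (0.17, adjusted p = 0.0533) did not pass, although Stat6 did by DESeq2 (adjusted p = 0.0370). The calls of Stat4 and Tyk2 were lost without the pair AC CM2 and AC CM3 (adjusted p = 0.0850 and 0.217).

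Of 17 negative regulators of this signalling, 2 fell, 0 rose and 15 did not pass (median -0.09). The share that fell, 11.8%, was near the 13.3% of all genes tested. Socs3, the STAT3-induced inhibitor that binds gp130, was at 22.6, 17.7 and 18.1 CPM after C CM and 10.7, 11.0 and 10.3 CPM after AC CM. It fell in every AC CM library relative to every C CM library (log2 fold change -0.87, SE 0.12, adjusted p = 0.00108 by edgeR). The phosphatase gene Ptpn1 fell by 0.50 on the log2 scale. Both calls were lost without the pair AC CM2 and AC CM3 (adjusted p = 0.0607 for Socs3 and 0.0645 for Ptpn1). Socs1 had 620, 248 and 240 counts after C CM and 226, 227 and 176 after AC CM and did not pass (adjusted p = 0.101 by edgeR). Its C CM1 stood well above the others.

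**Figure D5:**
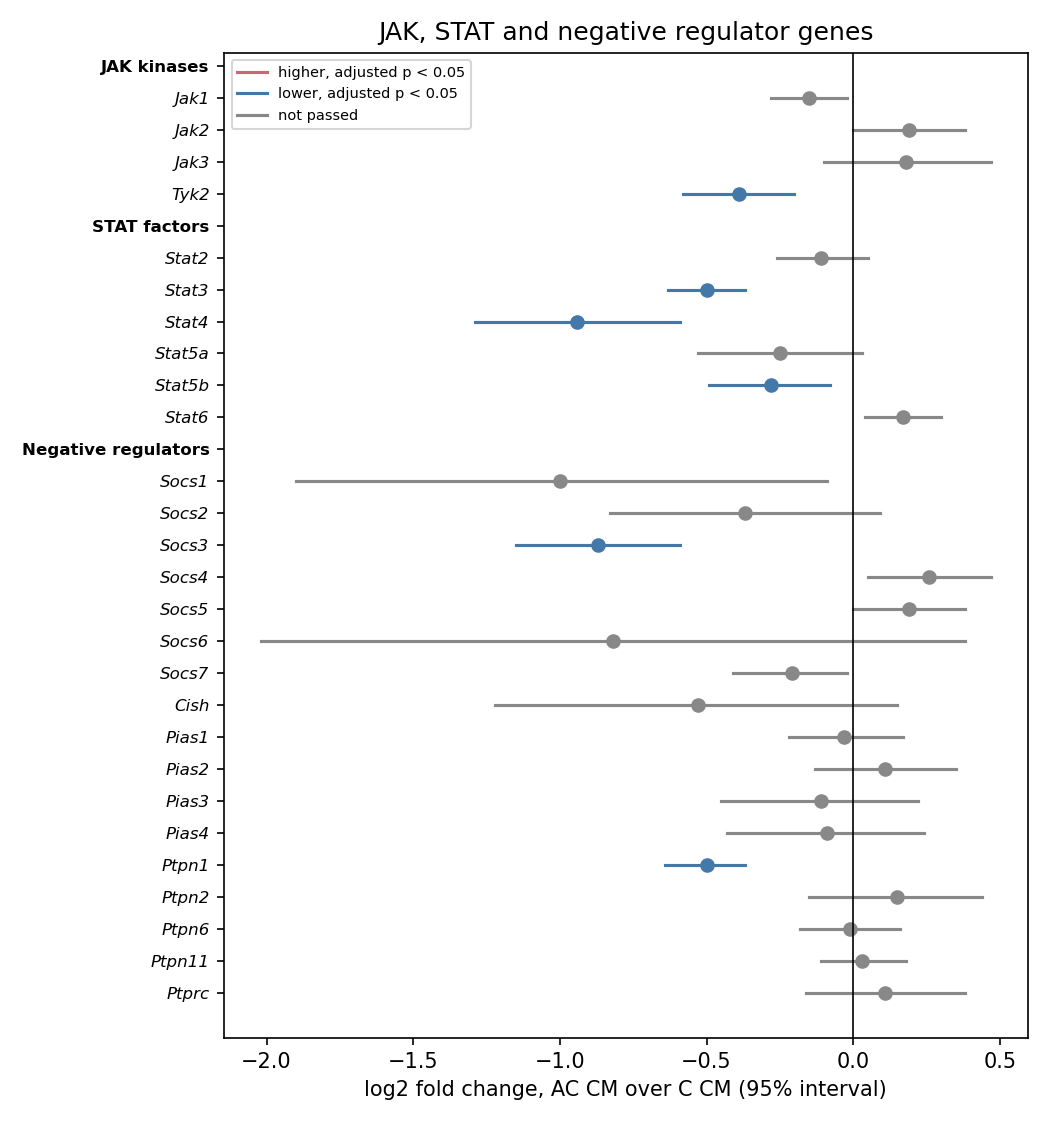
Log2 fold change, AC CM over C CM, with its 95% interval for JAK, STAT and negative regulator genes; blue marks genes called lower and grey those that did not pass. None of the genes drawn was called higher, and those called lower include Stat3 at -0.50 and Socs3 at -0.87.

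Of 22 IL-10 response and STAT3 target genes, 5 rose, 7 fell and 10 did not pass, so the list had no single direction (median -0.21). In this list 54.5% were called, against 26.5% of all genes tested. Bcl3, an IκB-family gene induced by IL-10, fell by 1.10 on the log2 scale from 35.6 ± 7.92 CPM. Socs3 fell as given above. The repressor gene Bcl6 rose by 0.89 to 104 ± 2.39 CPM, and the cyclin gene Ccnd1 by 2.59 to 644 ± 7.92 CPM, a gene that growth factors are also known to induce. The call of Bcl3 was lost without the pair AC CM2 and AC CM3 (adjusted p = 0.0564).

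Among 34 other class I and II cytokine receptor chains, 27 were tested, of which 2 rose, 7 fell and 18 did not pass (median -0.23). Of those tested 33.3% were called, against 26.5% of all genes tested. The largest falls by p-value were in Csf2rb, the common beta chain, at a log2 fold change of -1.31 (SE 0.06), and in its near-identical neighbour Csf2rb2, from 250 ± 9.90 to 110 ± 1.31 CPM, between which reads may be split. Csf3r, the receptor of granulocyte colony-stimulating factor, fell by 0.85 beside the neutrophil markers. Il2rb fell by 2.00 from 7.03 ± 0.287 CPM, beside the lymphocyte markers; in neither case was the markers' part tested. Lifr, another partner of gp130, fell from 69.5 ± 6.51 to 36.7 ± 2.73 CPM (log2 fold change -0.92, SE 0.09). Osmr, a further gp130 partner, was at 24.3 ± 3.43 against 28.5 ± 0.803 CPM and did not pass (adjusted p = 0.160 by edgeR). Of 19 other ligand genes 7 were tested, 1 fell and 0 rose (14.3% called, against 13.3% of all genes tested that fell). The gene that fell was Clcf1, from 5.10 ± 0.970 to 3.18 ± 0.272 CPM. Its call was lost without any single library other than C CM2 (adjusted p = 0.0554 to 0.0956). Osm (7.04 ± 1.30 against 5.68 ± 0.605 CPM) and Lif (2.67 ± 0.182 against 2.80 ± 0.389 CPM) did not pass.

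Of 15 regulators of Il10 transcription, 3 rose, 4 fell and 8 did not pass (median -0.13). In either direction 46.7% were called, against 26.5% of all genes tested. Maf, a factor that binds the Il10 promoter, was abundant and went from 893 ± 41.5 to 1015 ± 12.7 CPM (adjusted p = 0.0420 by edgeR), a call lost under 9 of 18 alternatives. Fos rose by 0.81. The genes Prdm1, which encodes BLIMP-1, and Irf4 fell by 1.09 and 1.31. Mapk3, which encodes ERK1, was at -0.48, and leaving out any library other than C CM3 or AC CM1 ended its call (adjusted p = 0.0674 to 0.0942). Of 5 genes tied to shedding of the IL-6 receptor, Timp3, an inhibitor of the sheddase ADAM17, rose by 0.81 from 279 ± 29.9 to 490 ± 17.1 CPM. Adam17 itself ranged widely between libraries (256 ± 84.8 against 305 ± 77.2 CPM) and did not pass (adjusted p = 0.653 by edgeR).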

How the data were processed

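RNA of 3 C CM and 3 AC CM samples was sequenced after an mRNA library preparation, per the labels' protocols. The authors deposited raw read counts per gene, which were used for all tests. The normalized signal columns the authors deposited (counts divided by a constant per sample) were not used. The deposited log2 fold changes and p-values are the authors' own comparison and were only read. The submitters' processing notes list, without roles, the read trimmer fastp (0.17.1), the aligner HISAT2 (2.1.0), DESeq2 (1.18.1) and R (3.4.3). For the counter, strand setting and build the sources used here give no entry. Coordinates are the table's, identical to GENCODE M21 (GRCm38) for 100.0% of the 49035 matched identifiers, whose exons gave lengths.

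Counts were filtered with filterByExpr, scaled by TMM and tested with edgeR 4.0.16 in R 4.3.3 (robust quasi-likelihood test, group as the only term, Benjamini-Hochberg adjustment over 17863 genes, threshold 0.05). SE is the log2 fold change over the root of F, and 95% intervals use it. CPM uses TMM-scaled totals. Alternatives were DESeq2 1.42.0, limma-voom 3.58.1, other scalings and filters, the replicate number as a block, left-out libraries, and counts divided by 4. Replicates were not copies (chi-square per gene 27.2 to 63.2). Figures used matplotlib 3.10.9.

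The members and lists were chosen with earlier results of these data known. Named were all members, up to 4 genes per list with the smallest p past the threshold, and a fixed set of JAK, STAT, SOCS, ligand and partner genes; Lifr, Osmr, Il17rc, Ifnlr1, Il22ra1, Il21, Apobr, Gm42809, Gm21970, the interferon receptor genes and the marker genes were named after their values were seen. A planned search for a protein motif was not run, and the values of 1 gene of the JAK and STAT list are not reported here.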

Additional observations from a re-analysis of the deposited data

How the results depend on the processing

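Over 179 recalculated values of the 10 genes, 170 kept their direction and their side of the threshold and 9 lost the call; none changed direction. With AC CM2 and AC CM3 both left out, where the lone AC CM1 is taken to vary as the controls do, 510 genes rose and 764 fell over the whole table, and 0 of the 10 genes were called higher, against 3 with all samples. Leaving out single libraries gave 1511 to 2667 genes higher and 1647 to 2356 lower; without AC CM2 there were 1546 higher and 1675 lower, and without AC CM3 1511 and 1647. Deviations of same-numbered libraries from their group means correlated at -0.0835, 0.0151 and 0.0222. Those of differently numbered libraries correlated at -0.0763 to 0.0611. Such values showed no pairing by number, but with 3 libraries per group they cannot exclude it. With the replicate block 2216 genes rose and 2181 fell, and the calls of the 10 genes were the same; Clcf1 (adjusted p = 0.0569) and Maf (0.0579) lost theirs. Changes of sign occurred in genes that did not pass: Adam17 was at -0.25 without AC CM2 and AC CM3, Il4ra ranged from -0.06 to 0.06 (without C CM1) over left-out libraries, and Lif from -0.05 (without AC CM1) to 0.16. With the block, Adam17 passed (0.28, adjusted p = 0.0362). By DESeq2, Socs1 (adjusted p = 0.0240) and Stat6 (0.0370) passed. The cause of these differences was not tested. The lowest counts among the 10 genes, where depth limits precision, were those of Il27ra after AC CM, at 11 to 49.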

Other observations

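Il10rb lies in a cluster of class II receptor genes on chromosome 16, all on the plus strand, whose members moved in different directions. Ifnar2 (91372783 to 91405589), which ends just before Il10rb begins, fell from 232, 225 and 224 CPM after C CM to 193, 191 and 197 CPM after AC CM (log2 fold change -0.23, SE 0.06, adjusted p = 0.0166 by edgeR). Ifnar1 (91485238 to 91507441), the other chain of the type I interferon receptor, rose from 197 ± 5.90 to 226 ± 5.20 CPM (log2 fold change 0.20, SE 0.06, adjusted p = 0.0349 by edgeR). Ifngr2 (91547072 to 91565169), a chain of the interferon gamma receptor, was at 173 ± 8.59 against 163 ± 1.93 CPM and did not pass (adjusted p = 0.367 by edgeR). Il10rb and Ifnar1 were thus higher and Ifnar2 lower within the same stretch. The limits given above for Il10rb apply here too, and the values of Ifnar1 and Ifnar2 under the alternatives were not examined. Gm21970 (91391721 to 91419451) spans the end of Ifnar2 and the start of Il10rb on the same strand, and reads shared with it were not resolved.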
